A study of Mus musculus with 40 samples.

Results

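The 10 core circadian clock genes Per1, Per2, Per3, Cry1, Cry2, Arntl, Clock, Nr1d1, Nr1d2 and Dbp were followed by bulk RNA sequencing in developing oligodendrocytes, the glial cells that go on to make myelin. They were taken by symbol from the 39056 genes of the count table, and all 10 passed the filter on low counts, as did 15135 genes in all. The set was selected on one measured value beside the names, the early rise of Per1 in thapsigargin cells. Values of thapsigargin 1 h cells against untreated 1 h cells are therefore a description, with no test. All groups were wild-type C57BL/6 cells, taken as progenitors by immunopanning from the cortex of pups of 6 days (6 to 7 days in the age label, with the tissue label naming whole brain), passaged 2 times and left to differentiate for 12 to 14 h before treatment. Thapsigargin, an inhibitor of the calcium pump of the endoplasmic reticulum, was given at 200 uM as labelled for 1 or 8 h. IFN-gamma, a cytokine that T cells and natural killer cells release, was given at 200 U/ml for 1, 8, 24 or 48 h. Untreated cells were collected at 1, 8, 24 and 48 h, and each of the 10 groups had 4 libraries. The labels do not say which libraries share a plate, pup or preparation, so p-values measure only the spread between these libraries, which may be technical.

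The mammalian clock is a loop of transcription and feedback. The proteins of Clock and Arntl (also called BMAL1) pair and bind E-boxes in the DNA of the Per and Cry genes, whose proteins then inhibit that pair. In a second loop the REV-ERB proteins of Nr1d1 and Nr1d2 repress Arntl at ROR elements, where the ROR proteins activate it, and Dbp is an output factor that acts through D-boxes. In the oligodendrocyte lineage the clock has been linked to the timing of progenitor division.

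The promoter windows of Per1, Cry1, Per3 and Arntl are shown because they hold the letters of the elements by which these loops are known to run and belong to genes that changed after 8 h of thapsigargin. RefSeq (GRCm38.p6) gave 13 windows of 300 bases for 9 of the 10 genes, from 250 bases before the start site to 50 after it, and none for Per2. The windows of Cry2, Nr1d1, Clock and Dbp, which also changed after 8 h of thapsigargin, held no E-box, D-box or ROR element core. Nor did that of Nr1d2. Each line reads 5′ to 3′ on the strand of the gene, with the motif in capitals: the E-box CACGTG in Per1 and Cry1, the D-box TTATGTAA in Per3 and the ROR element core TAGGTCA in Arntl.
Per1, chr11:69098699-69098998, plus strand: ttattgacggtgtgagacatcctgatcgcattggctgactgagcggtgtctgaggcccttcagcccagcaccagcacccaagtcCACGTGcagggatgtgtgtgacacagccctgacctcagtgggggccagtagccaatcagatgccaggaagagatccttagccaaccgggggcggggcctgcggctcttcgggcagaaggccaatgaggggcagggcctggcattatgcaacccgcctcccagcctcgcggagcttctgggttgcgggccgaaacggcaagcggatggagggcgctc
Cry1, chr10:85185005-85185304, minus strand: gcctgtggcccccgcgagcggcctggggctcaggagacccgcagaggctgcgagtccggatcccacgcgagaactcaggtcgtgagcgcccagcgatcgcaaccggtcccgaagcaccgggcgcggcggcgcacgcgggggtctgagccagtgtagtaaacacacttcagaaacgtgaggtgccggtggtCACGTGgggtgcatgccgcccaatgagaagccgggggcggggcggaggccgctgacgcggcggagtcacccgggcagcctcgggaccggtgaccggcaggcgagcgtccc
Per3, chr4:151044616-151044915, minus strand: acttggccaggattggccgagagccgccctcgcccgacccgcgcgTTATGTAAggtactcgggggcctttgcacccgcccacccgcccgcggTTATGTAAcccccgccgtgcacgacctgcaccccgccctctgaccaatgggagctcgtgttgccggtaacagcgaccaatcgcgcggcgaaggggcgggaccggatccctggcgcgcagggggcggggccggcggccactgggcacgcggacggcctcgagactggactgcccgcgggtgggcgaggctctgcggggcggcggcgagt
Arntl, chr7:113207261-113207560, plus strand: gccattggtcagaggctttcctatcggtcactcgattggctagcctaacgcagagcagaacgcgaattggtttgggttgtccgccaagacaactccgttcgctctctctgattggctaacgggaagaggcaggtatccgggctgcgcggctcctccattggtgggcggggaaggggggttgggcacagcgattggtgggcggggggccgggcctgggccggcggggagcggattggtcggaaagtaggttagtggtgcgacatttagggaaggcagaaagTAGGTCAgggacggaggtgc

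Positions were counted from the first transcribed base of the window. The E-box began at -166 in Per1 and at -60 in Cry1, and 7.15% of the 32851 RefSeq windows held it on either strand. The Per3 window held the D-box at 2 places, beginning at -205 and -158, and 1.06% of all windows held TTATGTAA or TTACGTAA. The ROR element core began at 30 in the second of the Arntl windows, and 2.61% of all windows held it. Neither the cAMP response element TGACGTCA (1.79% of all windows) nor the CCAAT-ATF4 element TGATGCAA (0.895%) was found in these windows. These motifs overlapped no other motif searched, and a match describes letters only.

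Each library had between 13165483 and 22651092 reads assigned to genes. IFN-gamma 1 h replicate 2 stood apart with a TMM scaling factor of 0.748, against 0.918 to 1.08 in the other libraries. The summed level of 3 Y-linked genes was at most 20.6 CPM (read counts scaled to the library size) in 10 libraries, against at least 103 in the other 30. They were 2 libraries of each IFN-gamma group and replicate 2 of each thapsigargin group, and no untreated library, so this level was not balanced between treated and untreated cells. The library titles carry a running number from 1 to 40, with 2 libraries of each group among the lower 20 and 2 among the upper 20. Nothing in the labels makes these ranges batches, and calls that were lost within a range are listed after the comparisons. Oligodendrocyte lineage markers summed to between 2886 and 17770 CPM over all libraries. Astrocyte markers reached at most 167 CPM, neuron markers 62.8, fibroblast markers 9.94, microglia and macrophage markers 4.62, and endothelial and mural markers 3.89. Markers of other cells differed within a list. Gjb6 (astrocyte) had 0 reads in 29 libraries, Aif1 (microglia) in 28 and Cldn5 (endothelium) in 33. Gfap (astrocyte, 80 to 1002 reads), P2ry12 (microglia, 16 to 74) and Snap25 (neuron, 58 to 555) had reads in every library. Pecam1 (endothelium) had 0 reads in 1 library.

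In untreated 1 h cells, levels per length (RPKM, on the union of annotated exons) ran from 7.89 ± 0.46 for Nr1d2, 7.04 ± 0.30 for Cry1 and 6.22 ± 0.15 for Clock down to 1.45 ± 0.19 for Nr1d1 and 1.37 ± 0.07 for Per3 (SD, n = 4 each). Dbp stood between at 4.47 ± 0.66, and Cry2, Arntl, Per2 and Per1 lay between 1.88 and 2.58 with neighbours that did not differ beyond their SDs. With the mean transcript length from the isoform table in place of the union, Clock came first at 10.9 ± 0.3 RPKM, Arntl stood at 5.76 ± 1.11 and above Cry2 (4.37 ± 0.33), and Per3 ranked 8 at 2.42 ± 0.12, so the order depends on the length taken. Read counts per library ranged from 14 to 113 for Nr1d1, the gene of fewest reads here, and from 1109 to 2221 for Clock.

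**Figure D1:**
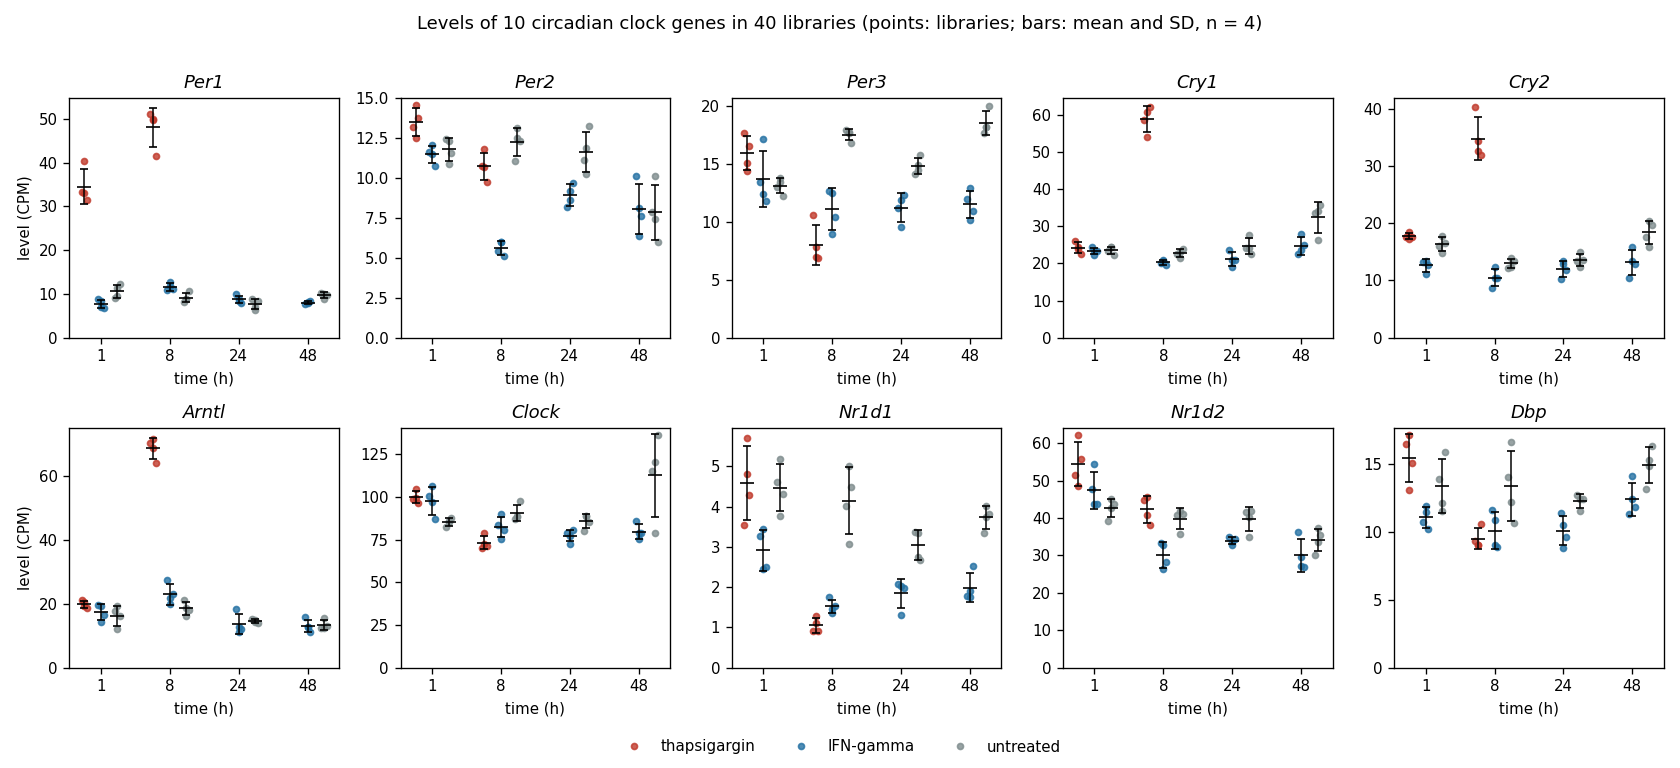
Levels of the 10 clock genes in CPM (vertical axes, each from 0) by time of collection (horizontal axes, in h) in thapsigargin, IFN-gamma and untreated cells. Each point is a library and bars give the mean and SD of 4 libraries. Per1 is high in thapsigargin cells at both times (34.5 and 48.0 CPM on average), while Cry1, Cry2 and Arntl are high in thapsigargin cells at 8 h alone.

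After 8 h of thapsigargin, 4 of the 10 clock genes rose (Per1, Arntl, Cry2 and Cry1) and 4 fell (Nr1d1, Per3, Dbp and Clock), 8 in all, while 60.6% of all genes tested were called in this comparison. The median size of the log2 fold change was 1.25 over the 10 clock genes and 0.44 over all genes tested. Libraries of thapsigargin 8 h and untreated 8 h cells did not overlap for any of these 8 genes. The share of all genes without such overlap was not counted, so nothing particular to the clock genes is read from this. Calls here and below are at a Benjamini-Hochberg adjusted p under 0.05 in edgeR's quasi-likelihood test over all genes tested.

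Per1, a repressor of the core loop that also responds fast to signals from outside the cell, had 51.04, 49.96, 41.4 and 49.7 CPM in thapsigargin 8 h cells, against 8.21, 8.75, 10.8 and 8.92 CPM in untreated 8 h cells. Every thapsigargin library lay far above every untreated one. The log2 fold change was 2.40 ± 0.11 (SE), a 5.26-fold rise (adjusted p = 4.1e-20). Per3, a paralogue of lesser weight in the mouse clock, moved the other way. It had 10.6, 6.94, 6.89 and 7.81 CPM in thapsigargin 8 h cells, against 17.9, 17.8, 16.8 and 17.7 CPM in untreated 8 h cells, a log2 fold change of -1.12 ± 0.12 (adjusted p = 5.25e-10). Per2, a core repressor whose loss disturbs daily rhythms in the mouse, averaged 10.7 ± 0.9 CPM in thapsigargin 8 h cells and 12.3 ± 0.9 CPM in untreated 8 h cells (SD, n = 4 each), with overlapping libraries and a log2 fold change of -0.19 ± 0.12 that missed the threshold (adjusted p = 0.153). The 3 PER genes thus had a rise, a fall and a difference that was not called.

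Both cryptochromes, the strongest repressors of the Clock and Arntl pair, rose. Cry1 had 58.5, 60.7, 61.9 and 53.9 CPM in thapsigargin 8 h cells, against 22.6, 21.4, 23.9 and 22.9 CPM in untreated 8 h cells (log2 fold change 1.37 ± 0.08, adjusted p = 5.57e-17). Cry2 had 40.3, 34.3, 31.99 and 32.6 CPM in thapsigargin 8 h cells, against 12.2, 12.4, 13.5 and 13.9 CPM in untreated 8 h cells (log2 fold change 1.43 ± 0.11, adjusted p = 7.02e-14). These were rises of 2.59-fold and 2.69-fold.

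The partners of the activating pair went opposite ways. Arntl had 70.4, 71.5, 63.99 and 68.6 CPM in thapsigargin 8 h cells, against 21.2, 18.7, 17.98 and 16.3 CPM in untreated 8 h cells, a 3.70-fold rise (log2 fold change 1.89 ± 0.13, adjusted p = 1.09e-14). Clock had 69.99, 72.3, 71.4 and 78.7 CPM in thapsigargin 8 h cells, against 87.1, 88.4, 97.7 and 88.7 CPM in untreated 8 h cells, a log2 fold change of -0.31 ± 0.09 (adjusted p = 0.00344). On the scale per length, Arntl stood at 9.12 ± 0.44 RPKM in thapsigargin 8 h cells and 2.46 ± 0.27 RPKM in untreated 8 h cells, against 5.33 ± 0.28 and 6.59 ± 0.35 RPKM for Clock in the same groups (SD, n = 4). By the mean transcript length Arntl stood at 24.2 ± 1.2 RPKM in thapsigargin 8 h cells and 6.54 ± 0.72 RPKM in untreated 8 h cells, against 9.30 ± 0.49 and 11.5 ± 0.6 RPKM for Clock.

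Nr1d1, the REV-ERB-alpha gene, had 0.91, 1.28, 0.90 and 1.12 CPM in thapsigargin 8 h cells, against 4.01, 5.02, 4.49 and 3.07 CPM in untreated 8 h cells. The groups lay far apart, with a log2 fold change of -1.98 ± 0.19, a 3.94-fold fall (adjusted p = 2.45e-11). Nr1d2, the REV-ERB-beta gene, averaged 42.3 ± 3.6 CPM in thapsigargin 8 h cells and 39.8 ± 2.8 CPM in untreated 8 h cells, with overlapping libraries and a log2 fold change of 0.09 ± 0.09 that was not called (adjusted p = 0.439). Dbp had 9.30, 9.07, 10.6 and 9.06 CPM in thapsigargin 8 h cells, against 14.0, 16.7, 10.7 and 12.2 CPM in untreated 8 h cells, a log2 fold change of -0.50 ± 0.12 (adjusted p = 0.000373). The highest thapsigargin library and the lowest untreated one lay next to each other, and within the upper 20 library numbers alone the log2 fold change was -0.19 and not called.

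Beside these changes, 5 of the 11 oligodendrocyte lineage markers fell and none rose, and their sum was 2886 to 3511 CPM in thapsigargin 8 h cells and 6787 to 8093 CPM in untreated 8 h cells. Of 5 neuron markers tested 3 rose and 1 fell, with a sum of 46.7 to 62.8 CPM in thapsigargin 8 h cells and 19.7 to 21.7 CPM in untreated 8 h cells. Endothelial and mural markers summed to 1.25 to 1.82 CPM in thapsigargin 8 h cells and 0.442 to 1.02 CPM in untreated 8 h cells (2 of 3 tested rose), and the 1 microglial marker tested, P2ry12, rose. The part of these markers in the clock gene changes was not tested. In bulk samples, fewer cells of a type and less RNA per cell cannot be told apart. Nr1d1 shares 263 exonic bases with Thra on the opposite strand, 8.55% of its exonic length, and Thra also fell (log2 fold change -0.90 ± 0.25). Dbp shares 539 bases (18.01%) with Sphk2, which rose by 0.28 ± 0.08 on the log2 scale. The use of strand in counting is not given in the sources used here, so reads from such overlaps cannot be told apart.

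**Figure D2:**
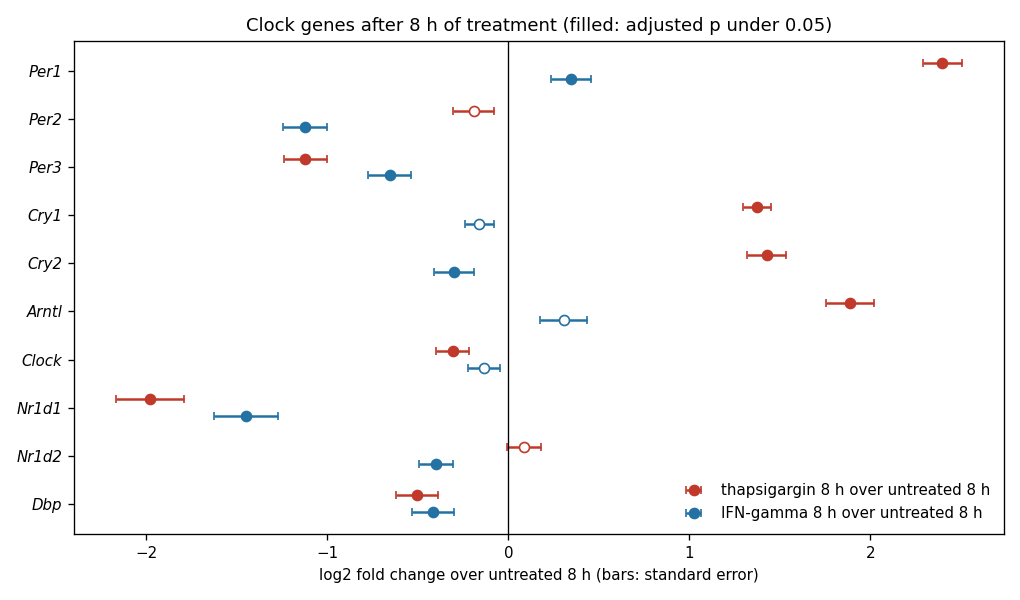
Log2 fold change over untreated 8 h cells (horizontal axis, bars give the standard error) of each clock gene in thapsigargin 8 h cells and IFN-gamma 8 h cells, filled where the adjusted p was under 0.05. Per1 (2.40), Arntl (1.89), Cry2 (1.43) and Cry1 (1.37) lie far to the right for thapsigargin, and Nr1d1 lies to the left for both treatments (-1.98 and -1.45).

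At 1 h, the comparison that chose the set, Per1 had 33.3, 33.1, 31.4 and 40.4 CPM in thapsigargin cells, against 9.11, 9.60, 12.3 and 11.4 CPM in untreated cells. The log2 fold change was 1.71 ± 0.11. The fit called 8.79% of all genes in this comparison and 2 of the 10, Per1 and Nr1d2, a count that the choice of the set bears on and from which nothing is read. Nr1d2 averaged 54.5 ± 6.0 CPM in thapsigargin 1 h cells and 42.7 ± 2.5 CPM in untreated 1 h cells, a log2 fold change of 0.35 ± 0.09. The other 8 genes lay between 0.04 (Nr1d1) and 0.28 (Per3) on the log2 scale. Between 1 and 8 h the difference from untreated cells of the same time grew by 0.69 for Per1, 1.61 for Arntl, 1.33 for Cry1 and 1.31 for Cry2. It moved by -2.02 for Nr1d1, -1.40 for Per3, -0.72 for Dbp, -0.53 for Clock, -0.39 for Per2 and -0.26 for Nr1d2, again as a description. At 1 h the thapsigargin libraries overlapped the untreated ones for Arntl, Cry1, Cry2, Nr1d1 and Dbp. They did not overlap for Per1, on which the set was chosen, or for Per2, Per3, Clock and Nr1d2. The share of all genes without overlap was not counted, and nothing is read from this.

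IFN-gamma mostly lowered the clock genes that it changed. At 8 h, 7 of 10 were called, 6 of them lower (Nr1d1, Per2, Per3, Dbp, Nr1d2 and Cry2) and Per1 higher, with 25.2% of all genes tested called. The median size of the log2 fold change was 0.37 over the 10 clock genes and 0.19 over all genes tested. At 1 h 2 of 10 were called (1.29% of all genes), at 24 h 4 (23.1%) and at 48 h 6 (36.8%), all of them lower. The 1 h comparison shares its untreated libraries with the thapsigargin comparison that chose the set.

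Nr1d1 was lower at all 4 times. At 8 h it had 1.75, 1.46, 1.54 and 1.35 CPM in IFN-gamma cells, against 4.01, 5.02, 4.49 and 3.07 CPM in untreated cells, with no overlap and a log2 fold change of -1.45 ± 0.18 (adjusted p = 3.81e-08). At 24 h it averaged 1.85 ± 0.36 CPM in IFN-gamma cells and 3.04 ± 0.37 CPM in untreated cells (log2 fold change -0.72 ± 0.17, adjusted p = 0.00191), and within the upper 20 library numbers alone the value was -0.45 and not called. At 48 h it averaged 1.99 ± 0.37 CPM in IFN-gamma cells and 3.74 ± 0.28 CPM in untreated cells (log2 fold change -0.92 ± 0.17, adjusted p = 6.3e-05; SD over n = 4 each). The 1 h value of -0.62 ± 0.16 (adjusted p = 0.0431) is weak: leaving out any one of replicates 1, 3 and 4 of either group lost the call, at -0.67 to -0.53. Thra, its neighbour on the opposite strand, had log2 fold changes of -0.51 ± 0.25 at 8 h, which was not called, and -0.84 ± 0.24 at 48 h, which was.

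Nr1d2 averaged 30.2 ± 3.5 CPM in IFN-gamma 8 h cells and 39.8 ± 2.8 CPM in untreated 8 h cells (log2 fold change -0.40 ± 0.10, adjusted p = 0.00147). It was not called at 1, 24 or 48 h, with log2 fold changes of 0.15, -0.23 and -0.19, though edgeR called it at 24 h without untreated 24 h replicate 4 (-0.28) and at 48 h without IFN-gamma 48 h replicate 1 (-0.29). Dbp averaged 10.1 ± 1.3 CPM in IFN-gamma 8 h cells and 13.4 ± 2.6 CPM in untreated 8 h cells (log2 fold change -0.42 ± 0.12, adjusted p = 0.00721), with overlapping libraries. Its call was lost without untreated 8 h replicate 2, at -0.26. At the other times Dbp had log2 fold changes of -0.27 (1 h), -0.28 (24 h) and -0.27 (48 h) and was not called, except at 48 h without untreated 48 h replicate 1 (-0.32) or IFN-gamma 48 h replicate 4 (-0.33).

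Per2 was far lower at 8 h and not at 48 h. It had 5.42, 6.01, 5.13 and 5.97 CPM in IFN-gamma 8 h cells, against 11.1, 13.1, 12.3 and 12.5 CPM in untreated 8 h cells, with a wide gap between the groups and a log2 fold change of -1.12 ± 0.12 (adjusted p = 2.26e-09). At 24 h it averaged 8.92 ± 0.67 CPM in IFN-gamma cells and 11.6 ± 1.3 CPM in untreated cells (log2 fold change -0.38 ± 0.12, adjusted p = 0.0149), a call lost without IFN-gamma 24 h replicate 1 or untreated 24 h replicate 3 (-0.33 and -0.32). At 1 and 48 h the log2 fold changes were -0.04 and 0.03 and the libraries overlapped. From 24 to 48 h the Per2 mean went from 8.92 to 8.05 CPM in IFN-gamma cells and from 11.6 to 7.8 CPM in untreated cells. Per3 averaged 11.1 ± 1.8 CPM in IFN-gamma 8 h cells and 17.6 ± 0.5 CPM in untreated 8 h cells (log2 fold change -0.66 ± 0.12, adjusted p = 3.83e-05). It was also lower at 24 h (-0.40 ± 0.12, adjusted p = 0.0106, at -0.33 and not called without IFN-gamma 24 h replicate 4) and at 48 h (-0.68 ± 0.12, adjusted p = 1.58e-05). At 48 h it had 12.0, 12.9, 10.9 and 10.2 CPM in IFN-gamma cells, against 17.7, 18.2, 20.03 and 18.2 CPM in untreated cells, far apart.

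Per1 changed direction with time. At 1 h it had 8.84, 7.12, 6.82 and 8.28 CPM in IFN-gamma cells, against 9.11, 9.60, 12.3 and 11.4 CPM in untreated cells, and at 8 h 10.9, 11.7, 11.02 and 12.8 CPM in IFN-gamma cells, against 8.21, 8.75, 10.8 and 8.92 CPM in untreated cells. The log2 fold changes were -0.44 ± 0.11 at 1 h (adjusted p = 0.0265) and 0.35 ± 0.11 at 8 h (adjusted p = 0.0167). The 1 h call was lost when any one of replicates 2 and 3 of IFN-gamma 1 h cells and 3 and 4 of untreated 1 h cells was left out, at -0.40 to -0.36, and the 8 h call within the upper 20 library numbers, at 0.27. At 24 h the value was 0.21 ± 0.11 and not called. At 48 h the value was -0.28 ± 0.11 (adjusted p = 0.0494). This call was lost when any one of replicates 1, 2 and 4 of IFN-gamma 48 h cells and 1, 3 and 4 of untreated 48 h cells was left out, at -0.28 to -0.25.

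Cry1 was lower by 0.39 ± 0.08 on the log2 scale at 48 h (adjusted p = 0.000196). It had 22.4, 27.9, 24.96 and 23.5 CPM in IFN-gamma cells, against 33.5, 26.1, 35.6 and 34.04 CPM in untreated cells. Untreated replicate 2 is the low library there and the only one that overlaps the IFN-gamma range. From 24 to 48 h the Cry1 mean went from 21.1 to 24.7 CPM in IFN-gamma cells and from 24.6 to 32.3 CPM in untreated cells. At 24 h its log2 fold change was -0.23 ± 0.08 (adjusted p = 0.0354), not called when any one of replicates 2, 3 and 4 of IFN-gamma 24 h cells and 4 of untreated 24 h cells was left out (-0.23 to -0.16). Cry2 averaged 13.2 ± 2.2 CPM in IFN-gamma 48 h cells and 18.4 ± 2.0 CPM in untreated 48 h cells (log2 fold change -0.48 ± 0.11, adjusted p = 0.000486). Its 8 h value of -0.30 ± 0.11 (adjusted p = 0.0425) was not called without any one of 7 of the 8 libraries compared, all but IFN-gamma 8 h replicate 2, at -0.31 to -0.20. Clock had 85.7, 79.02, 78.9 and 75.3 CPM in IFN-gamma 48 h cells, against 115, 78.8, 136 and 120 CPM in untreated 48 h cells (log2 fold change -0.50 ± 0.09, adjusted p = 3.48e-05). Untreated replicate 2 again lay within the IFN-gamma range, and without it the value was -0.63. From 24 to 48 h the Clock mean went from 77.3 to 79.7 CPM in IFN-gamma cells and from 85.8 to 113 CPM in untreated cells. Arntl was called at no time with all libraries, with log2 fold changes of 0.09 at 1 h, 0.31 at 8 h, -0.10 at 24 h and -0.03 at 48 h. At 8 h it was called without untreated 8 h replicate 1 or IFN-gamma 8 h replicate 4, at 0.40 in both cases.

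Without the 10 libraries of low Y-linked level, edgeR no longer called these IFN-gamma differences, although every one kept its direction. At 1 h they were Per1 (-0.30) and Nr1d1 (-0.63), and at 8 h Cry2 (-0.15) and Dbp (-0.41). At 24 h they were Per2 (-0.37) and Cry1 (-0.30), and at 48 h Per1 (-0.27) and Cry2 (-0.32). The lower Per2, Per3 and Nr1d1 at 8 h and the lower Per3 and Nr1d1 at 48 h kept their call under every alternative tried.

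Marker lists moved in these comparisons too, and their part in the clock gene values was not tested. Oligodendrocyte lineage markers summed to 4803 to 5259 CPM in IFN-gamma 8 h cells and 6787 to 8093 CPM in untreated 8 h cells (3 of 11 fell). At 48 h the sums were 6254 to 8884 CPM in IFN-gamma cells and 9631 to 17770 CPM in untreated cells (5 fell and 2 rose). At 24 h they were 5703 to 6858 CPM in IFN-gamma cells and 8058 to 9940 CPM in untreated cells (5 fell). Astrocyte markers summed to 67.6 to 90.9 CPM in IFN-gamma 48 h cells and 113 to 167 CPM in untreated 48 h cells (2 of 4 fell). Fibroblast markers summed to 3.79 to 5.62 CPM in IFN-gamma 8 h cells and 0.214 to 0.755 CPM in untreated 8 h cells, and to 5.48 to 8.59 CPM in IFN-gamma 24 h cells and 0.239 to 2.501 CPM in untreated 24 h cells. At 48 h they summed to 8.13 to 9.94 CPM in IFN-gamma 48 h cells and 0.123 to 1.04 CPM in untreated 48 h cells (Lum, the 1 tested, rose at 8, 24 and 48 h). Microglia and macrophage markers summed to 3.09 to 4.31 CPM in IFN-gamma 8 h cells and 1.33 to 2.13 CPM in untreated 8 h cells, where P2ry12, the 1 tested, rose and Aif1 and Csf1r had 0 reads in IFN-gamma 8 h cells. Neuron markers summed to 30.4 to 35.8 CPM in IFN-gamma 8 h cells and 19.7 to 21.7 CPM in untreated 8 h cells (1 of 5 rose, as at 24 and 48 h).

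**Figure D3:**
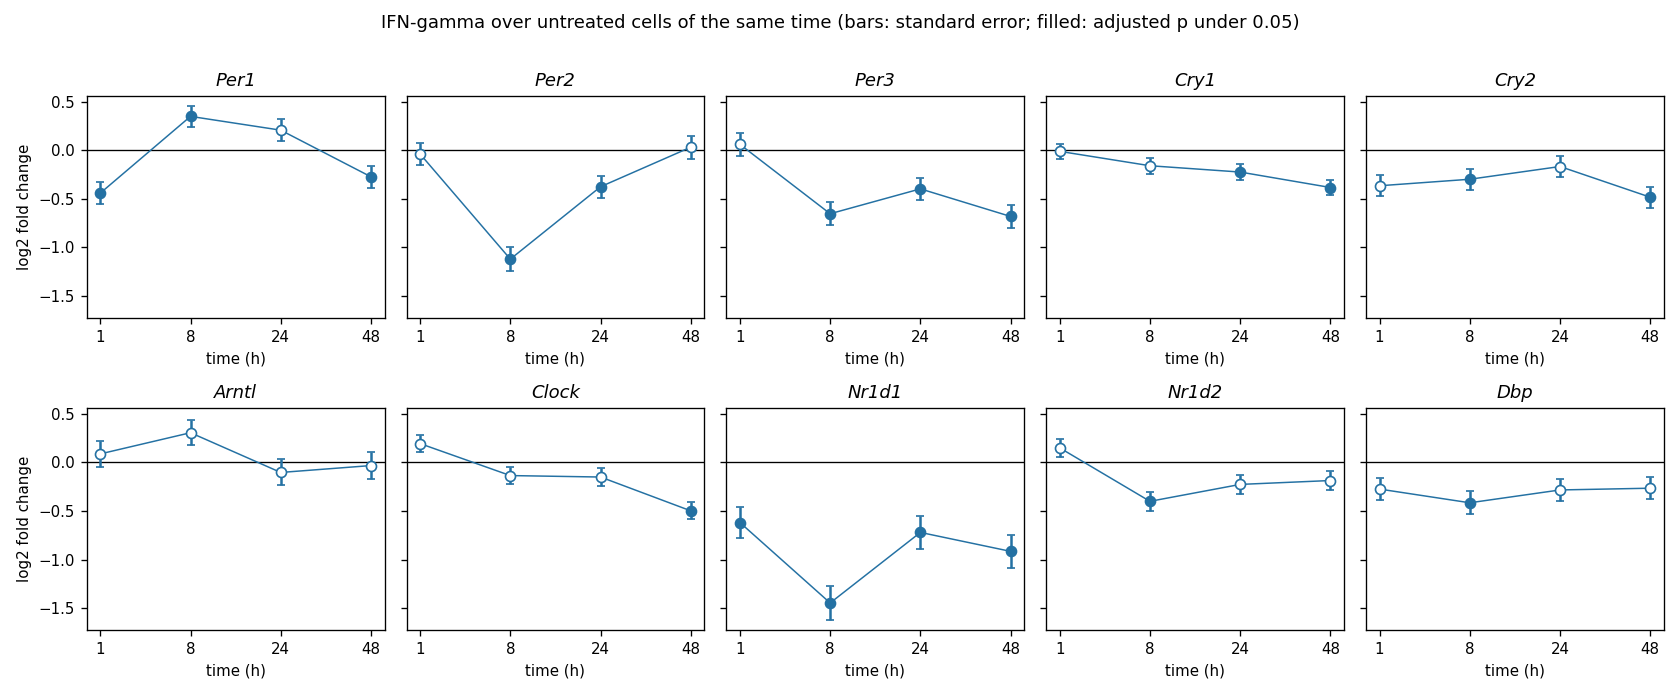
Log2 fold change of IFN-gamma cells over untreated cells of the same time (vertical axes, bars give the standard error) at 1, 8, 24 and 48 h (horizontal axes) for each clock gene, filled where the adjusted p was under 0.05. Per2 reaches -1.12 at 8 h and lies at 0.03 at 48 h, while Nr1d1 lies below 0 at all 4 times. From 24 to 48 h the Per2 mean goes from 8.92 to 8.05 CPM in IFN-gamma cells and from 11.6 to 7.8 CPM in untreated cells.

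The change in the IFN-gamma difference itself was tested between neighbouring times. From 1 to 8 h it changed for 5 of the 10 genes, with 12.4% of all genes tested called. Per1 moved up by 0.79 ± 0.16 on the log2 scale (adjusted p = 0.000313). Per2 moved by -1.08 ± 0.17 (adjusted p = 7.76e-06), Per3 by -0.71 ± 0.17 (adjusted p = 0.00214), Nr1d1 by -0.83 ± 0.24 (adjusted p = 0.0167) and Nr1d2 by -0.55 ± 0.13 (adjusted p = 0.0036). Without untreated 8 h replicate 2 the Nr1d1 value was -0.70 and not called, nor was it without the libraries of low Y-linked level (-0.91). This test also uses the untreated 1 h libraries of the comparison that chose the set. Within the lower 20 library numbers alone, of these 5 only Per2 was called. From 8 to 24 h Per2 alone was called (1.34% of all genes), moving back up by 0.74 ± 0.17 (adjusted p = 0.0136), or 0.67 and not called without untreated 24 h replicate 4 and 0.64 and not called without the libraries of low Y-linked level. It was called in neither range of library numbers (0.69 in the lower and 0.82 in the upper). From 24 to 48 h edgeR and DESeq2 called 0 of the 10 (1.68% of all genes in edgeR), and 4 had an unadjusted p under 0.05 in edgeR. Without untreated 48 h replicate 2, edgeR called 3: Clock (-0.48), Per1 (-0.52) and Per2 (0.57).

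Set directly against each other at 8 h, thapsigargin and IFN-gamma cells differed in 8 of the 10 genes (61.4% of all genes tested). Per1 was 4.14-fold, Cry2 3.31-fold, Arntl 2.99-fold and Cry1 2.90-fold higher in thapsigargin cells. Per2 was also higher there, at 10.7 ± 0.9 CPM in thapsigargin cells and 5.63 ± 0.43 CPM in IFN-gamma cells (log2 fold change 0.93 ± 0.12, adjusted p = 3.24e-08), as was Nr1d2 (0.49 ± 0.10, adjusted p = 3.53e-05). Per3 was lower in thapsigargin cells, with a log2 fold change of -0.47 ± 0.12 (adjusted p = 0.00124), or -0.34 and not called without the libraries of low Y-linked level. Nr1d1 was at 1.05 ± 0.18 CPM in thapsigargin cells and 1.53 ± 0.17 CPM in IFN-gamma cells (log2 fold change -0.53 ± 0.21, adjusted p = 0.0242), not called when replicate 1 or 3 of thapsigargin cells or 1 of IFN-gamma cells was left out (-0.47 to -0.46), nor without the libraries of low Y-linked level (-0.53). Clock and Dbp were not called, at -0.17 ± 0.09 and -0.09 ± 0.12. The comparisons with untreated 8 h cells share those libraries, so the values of both treatments stand side by side only.

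In untreated cells most of the clock gene calls between neighbouring times came between 24 and 48 h. The same held over all genes tested, with 1049 called between 8 and 1 h, 53 between 24 and 8 h and 6158 between 48 and 24 h. Between 8 and 1 h, 1 of the 10 was called, Per3 (6.93% of all genes), at 17.6 ± 0.5 CPM in untreated 8 h cells and 13.1 ± 0.7 CPM in untreated 1 h cells (SD, n = 4 each; log2 fold change 0.42 ± 0.12, adjusted p = 0.0211). The call was lost when replicate 4 of the 8 h cells or 1 or 3 of the 1 h cells was left out, at 0.39 to 0.42. Between 24 and 8 h edgeR and DESeq2 called 0 of the 10 (0.35% of all genes in edgeR), and 4 had an unadjusted p under 0.05. The 8 h comparison shares the untreated 1 h libraries with the one that chose the set.

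Between untreated 48 h and 24 h cells 6 were called, with 40.7% of all genes tested. The IFN-gamma 48 h comparison uses the same untreated 48 h libraries. Calls of Per1, Per3, Cry1, Cry2 and Clock in both comparisons therefore rest partly on the same libraries. Per2 had 7.86, 10.1, 5.96 and 7.43 CPM at 48 h and 11.1, 11.9, 13.2 and 10.3 CPM at 24 h, a log2 fold change of -0.56 ± 0.12 (adjusted p = 0.000321). Untreated 48 h replicate 2 lay just below the lowest 24 h library, and the others well below. Cry2 rose by 0.44 ± 0.11 (adjusted p = 0.00143), Clock by 0.39 ± 0.09 (adjusted p = 0.000712), Cry1 by 0.39 ± 0.08 (adjusted p = 0.000216), Per1 by 0.35 ± 0.11 (adjusted p = 0.011) and Per3 by 0.32 ± 0.11 (adjusted p = 0.0238). The Per3 call was lost when replicate 3 of the 48 h cells or 1 of the 24 h cells was left out, at 0.29 and 0.30. Without untreated 48 h replicate 2 the Clock value was 0.53. Nr1d2 was called too without that library or untreated 24 h replicate 4 (-0.26 each), and Dbp without untreated 48 h replicate 1 (0.34). None of the 6 was called within the lower 20 library numbers, which hold that library. Oligodendrocyte lineage markers summed to 9631 to 17770 CPM at 48 h and 8058 to 9940 CPM at 24 h (6 of 11 rose and 4 fell), and astrocyte markers to 113 to 167 CPM at 48 h and 41.9 to 62.04 CPM at 24 h (4 of 4 tested rose). Their part in these values was not tested.

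Calls were also looked at within each range of library numbers, which leaves 2 libraries a group, and every lost call kept its direction. In the lower range the lost IFN-gamma calls were Per1 (-0.24) and Nr1d1 (-0.34) at 1 h, Nr1d2 (-0.35) and Cry2 (-0.25) at 8 h and Per2 (-0.43), Per3 (-0.35) and Cry1 (-0.15) at 24 h. At 48 h they were Per1 (-0.26), Cry1 (-0.23), Cry2 (-0.48) and Clock (-0.22), and for the change from 1 to 8 h Per1 (0.62), Per3 (-0.70), Nr1d1 (-1.18) and Nr1d2 (-0.60). In the upper range they were Per1 at 1 h (-0.65), Per1 (0.27) and Dbp (-0.36) at 8 h, Per2 (-0.35) and Nr1d1 (-0.45) at 24 h, Per1 at 48 h (-0.26) and the Nr1d1 change from 1 to 8 h (-0.45). Per3 between untreated 8 and 1 h was called in neither range (0.41 in the lower, 0.43 in the upper), nor was Nr1d1 between thapsigargin and IFN-gamma 8 h cells (-0.54 and -0.49). Between untreated 48 and 24 h the upper range lost Per1 (0.41) and Per3 (0.32).

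Over all 10 groups, thapsigargin 8 h cells had the highest mean of Per1, Cry1, Cry2 and Arntl and the lowest of Per3, Clock, Nr1d1 and Dbp. For Cry1, Cry2, Arntl and Per1 no library of another group reached the thapsigargin 8 h range, and for Nr1d1 that range lay below every other library. IFN-gamma 8 h cells had the lowest mean of Per2, and 1 library of untreated 48 h cells reached their range. For Per3, Clock, Nr1d2 and Dbp each group overlapped its neighbours in the order of means. The lowest mean of Per3, Clock and Dbp in thapsigargin 8 h cells was thus not set apart from the next group.

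A wider list of 23 clock genes, chosen from textbook knowledge, held 11 further transcription factors of the loops and 12 kinases, ubiquitin ligases and partners, all of them tested. After 8 h of thapsigargin 15 of 23 were called (65.2%, against 60.6% of all genes), 10 higher and 5 lower, and the median size of the log2 fold change was 0.45, near the 0.44 of all genes tested. Among the transcription factors 7 of 11 rose and Tef fell. Npas2, a paralogue of Clock that also pairs with the Arntl protein, averaged 7.98 ± 1.08 CPM in thapsigargin 8 h cells and 1.12 ± 0.10 CPM in untreated 8 h cells (log2 fold change 2.82 ± 0.24, adjusted p = 1.24e-12). Nfil3, the repressor that competes with Dbp at D-boxes, averaged 97.7 ± 8.8 CPM in thapsigargin 8 h cells and 16.5 ± 1.9 CPM in untreated 8 h cells (2.57 ± 0.11, adjusted p = 4.07e-21). Arntl2, a paralogue of Arntl, averaged 34.2 ± 6.1 CPM in thapsigargin 8 h cells and 6.28 ± 0.47 CPM in untreated 8 h cells (2.45 ± 0.16, adjusted p = 3.43e-15). Timeless, which in mammals serves chiefly at replication forks, averaged 15.2 ± 1.3 CPM in thapsigargin 8 h cells and 76.6 ± 9.3 CPM in untreated 8 h cells (-2.33 ± 0.19, adjusted p = 3.79e-13).

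At 1 h of thapsigargin, as a description, Ciart, a repressor of the activating pair, averaged 10.3 ± 2.9 CPM in thapsigargin cells and 3.001 ± 0.72 CPM in untreated cells, and Bhlhe40, another repressor at E-boxes, 66.2 ± 12.0 CPM in thapsigargin cells and 33.2 ± 3.5 CPM in untreated cells. After 8 h of IFN-gamma 10 of 23 were called (43.5%, against 25.2% of all genes), 5 higher and 5 lower. Rorb, an activator at ROR elements, averaged 77.7 ± 11.6 CPM in IFN-gamma 8 h cells and 20.4 ± 6.1 CPM in untreated 8 h cells (log2 fold change 1.93 ± 0.36, adjusted p = 6.93e-05). Arntl2 averaged 13.4 ± 1.1 CPM in IFN-gamma 8 h cells and 6.28 ± 0.47 CPM in untreated 8 h cells (1.10 ± 0.16, adjusted p = 1.84e-06). Ciart fell by 0.92 ± 0.23 on the log2 scale (adjusted p = 0.00286), and Bhlhe41, a repressor at E-boxes with 2 to 9 reads per IFN-gamma 8 h library, by 1.37 ± 0.52 (adjusted p = 0.0471). At 1 h 1 was called (Bhlhe40, 0.65 ± 0.12, adjusted p = 0.00114), or 4.35% against 1.29% of all genes. At 24 h 6 were called (4 higher, 2 lower), or 26.1% against 23.1%, and at 48 h 13 (5 higher, 8 lower), or 56.5% against 36.8%. Over the 23 genes the values ran from -1.96 to 1.03 at 24 h and from -1.19 to 0.96 at 48 h. The highest at 24 h was Rorb (1.03 ± 0.36). Its libraries ran from 18.7 to 55.65 CPM in IFN-gamma 24 h cells and overlapped the 8.48 to 19.5 CPM of untreated 24 h cells. The lowest at 48 h was Bhlhe41 (-1.19 ± 0.38). In untreated cells 0 of 23 were called between 8 and 1 h by edgeR and by DESeq2, with 5 at an unadjusted p under 0.05 in edgeR and 6.93% of all genes called. The count was 1 between 24 and 8 h (Bhlhe40, -0.78 ± 0.13; 4.35% against 0.35% of all genes) and 14 between 48 and 24 h (60.9% against 40.7%), led by Bhlhe41 (1.54 ± 0.38) and Npas2 (-1.37 ± 0.31).

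**Figure D4:**
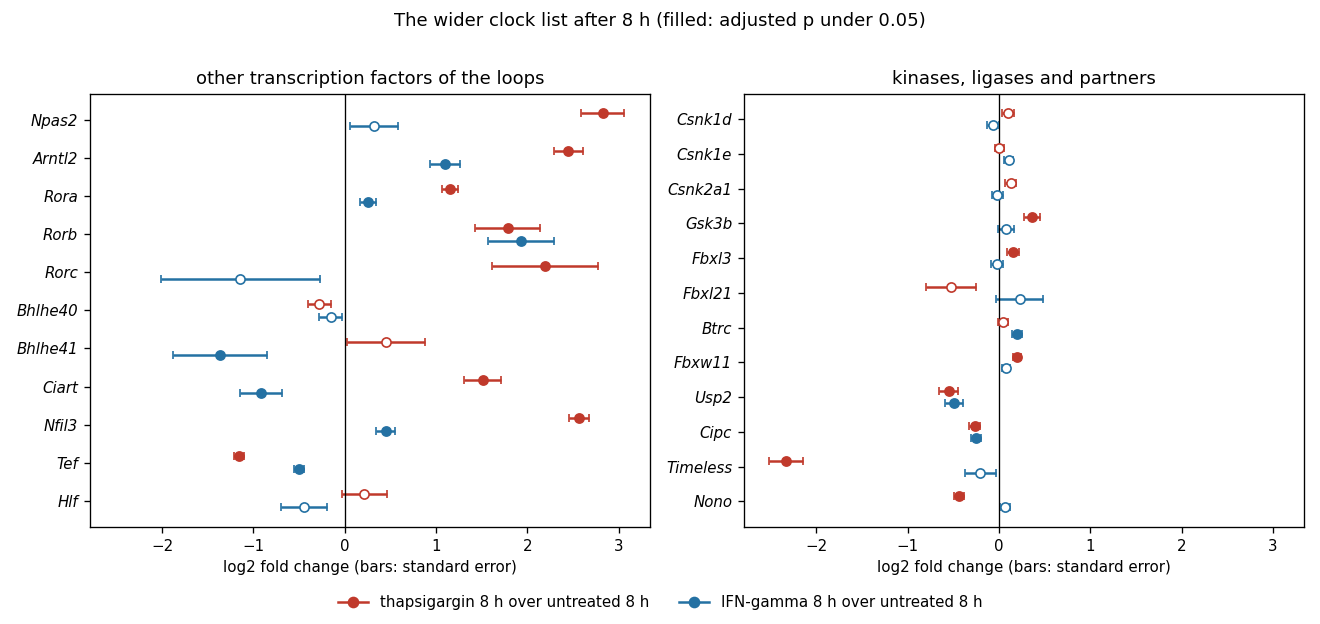
Log2 fold change over untreated 8 h cells (horizontal axes, bars give the standard error) of the 23 genes of the wider clock list in thapsigargin 8 h cells and IFN-gamma 8 h cells, filled where the adjusted p was under 0.05. Npas2 (2.82), Nfil3 (2.57) and Arntl2 (2.45) lie farthest right for thapsigargin and Timeless (-2.33) farthest left.

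In the isoform table, which holds estimated counts, Per1-201 carried 74.4 ± 2.4% of the Per1 estimate in thapsigargin 8 h cells and 69.6 ± 9.7% in untreated 8 h cells, so the rise of Per1 lay mostly in this transcript. Its estimated count averaged 649 in thapsigargin 8 h cells and 116 in untreated 8 h cells. Cry1-201 held 99.4 ± 0.3% of Cry1 in thapsigargin 8 h cells and 98.3 ± 0.9% in untreated 8 h cells. Clock was split: Clock-205 held 38.3 ± 1.6% in thapsigargin 8 h cells and 47.6 ± 3.9% in untreated 8 h cells, with no overlap between the groups, and Clock-201 38.9 ± 4.4% in thapsigargin 8 h cells and 32.2 ± 5.1% in untreated 8 h cells, with overlap. These shares are descriptions with no test (SD, n = 4 each). Dbp-201 held 41.0 ± 4.1% of Dbp in thapsigargin 8 h cells and 40.2 ± 7.1% in untreated 8 h cells.

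The genes most like Per1, Arntl and Dbp were taken by the Pearson correlation of mean log2 CPM over the 10 groups, among 11991 genes with an average log2 CPM of at least 1, as a description. For Per1 these were Atf4 (0.959), Gm7967 (0.952), Tmem161b (0.949), Mnt (0.947) and Amigo3 (0.944). Atf4, the transcription factor of the integrated stress response, averaged 374 and 943 CPM in thapsigargin cells of 1 and 8 h, against 174 and 160 CPM in untreated cells of the same times. For Arntl they were Hdac4, Cacna1b, Sfxn3, Nhs and Tcf12, with Hdac4, a histone deacetylase, at 0.990 and at 286 CPM in thapsigargin 8 h cells and 74.6 CPM in untreated 8 h cells. For Dbp they were Urgcp (0.929), Ppp1r3e, Nr1d1, Rab44 and Dusp22. With Spearman's measure in place of Pearson's, 0 of the 5 were shared for Per1, 1 for Arntl and 2 for Dbp, and the groups share treatments, times and the high thapsigargin 8 h value.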

How the data were processed

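Total RNA of cultured developing oligodendrocytes was sequenced on Illumina HiSeq, per the labels' protocols, and all 40 libraries in 10 groups of 4 were used. Raw read counts for 39056 genes were taken from one deposited table, and the deposited isoform table holds estimated counts for 112588 transcripts, neither normalized by the authors. STAR, featureCounts, kallisto and edgeR are named in the submitters' processing notes. Not given in the sources used here were versions, settings, build, annotation and strandedness. Symbols came from GENCODE M21, in which 38872 gene identifiers matched without their version (34299 with it), and 112029 transcripts matched. That annotation also gave exon lengths and overlapping genes.

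From the counts, R 4.3.3 with edgeR 4.0.16 fitted the quasi-likelihood model with TMM scaling, a filter on low counts by group (15135 genes left) and 1 mean for each group (30 residual degrees of freedom). The prior count was 0.125. Standard errors are the log2 fold change divided by the square root of F. Calls are at a Benjamini-Hochberg adjusted p under 0.05 over all genes tested. CPM was computed from the deposited counts on the scaled library sizes, and RPKM from CPM and exon length. The model was also run on simulated data with known changes in a small part of the genes. That setting differs from thapsigargin 8 h cells, where 60.6% of genes tested were called against untreated 8 h cells. Nothing is therefore read from the simulation for that comparison. Depth of 13165483 to 22651092 reads limits precision most for Nr1d1 and Bhlhe41.

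The 10 genes and the lists were chosen with earlier results of these data known. All 10 genes were named in every comparison, and up to 4 called genes of the wider list by size of the log2 fold change. Genes called like Per1, Arntl and Dbp were the 5 of highest correlation. Each library counted once. The 60 pairs of replicates differed by more than sampling noise (chi-square per degree of freedom at least 5.46). That excess cannot show whether libraries came from separate cultures. Alternatives were RLE scaling, no filter, DESeq2 1.42.0, the isoform table rounded and summed per gene, a block for the library number ranges or each range alone, the Y-linked level as a covariate, the compared groups alone, each library left out, and, added after seeing the data, the 10 libraries of low Y-linked level left out. They were run for the 10 genes and the counts over all genes, and not for single genes of the wider list. Isoform shares use the estimated counts as deposited. A further promoter motif that was searched is not reported here.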

Additional observations from a re-analysis of the deposited data

Results flagged for a closer look

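Over 100 groups of 4 libraries checked (10 genes in 10 groups), 4 held a library far from the other 3 by Dixon's criterion, and chance gives such a library in about 1 group in 20. Per1 had 41.4 CPM in thapsigargin 8 h replicate 3, against 49.7 to 51.04 CPM in the others. Dbp had 10.6 CPM in the same library, against 9.06 to 9.30 CPM. Clock had 97.7 CPM in untreated 8 h replicate 3, against 87.1 to 88.7 CPM in the others. Nr1d1 had 1.31 CPM in IFN-gamma 24 h replicate 2, against 1.97 to 2.08 CPM in the others.

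The difference between IFN-gamma and untreated cells itself differed between times in the interaction test of edgeR. From 1 to 8 h it moved by 0.79 for Per1, -1.08 for Per2, -0.71 for Per3, -0.83 for Nr1d1 and -0.55 for Nr1d2 on the log2 scale. From 8 to 24 h it moved by 0.74 for Per2.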

How the results depend on the processing

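Over 12 comparisons tested, 48 of 120 values of the 10 genes were called. Of 912 alternative values of these, 126 lost the call and 0 turned direction, and 19 of the 48 kept the call under every alternative. Of 1488 alternative values of results not called, 29 were called and 58 changed sign without a call. The cause was not tested in any case, except that fits on one range of library numbers hold fewer samples.

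Counts of the 10 genes called moved as follows. Under the lower library numbers alone the count was 1 for thapsigargin 1 h, 0 for IFN-gamma 1 h, 1 for IFN-gamma 24 h, 2 for IFN-gamma 48 h, 0 for untreated 8 against 1 h, 0 for untreated 48 against 24 h, 1 for the IFN-gamma change from 1 to 8 h and 0 for that from 8 to 24 h. Under the upper library numbers it was 1 for IFN-gamma 1 h, 2 for IFN-gamma 24 h, 0 for untreated 8 against 1 h, 0 for the change from 8 to 24 h and 1 for that from 24 to 48 h. With the compared groups alone it was 4 for thapsigargin 1 h, 0 for IFN-gamma 1 h, 2 for IFN-gamma 48 h and 2 for untreated 8 against 1 h. With no filter it was 0 for IFN-gamma 1 h and 2 for IFN-gamma 24 h. The isoform table gave 1 for IFN-gamma 1 h and 0 for the change from 8 to 24 h. The Y-linked covariate gave 1 for IFN-gamma 1 h and 2 for untreated 8 against 1 h. Without libraries of low Y-linked level it was 0 for IFN-gamma 1 h, 2 for IFN-gamma 24 h, 2 for untreated 8 against 1 h and 0 for the change from 8 to 24 h. The library number block and DESeq2 each gave 2 for untreated 8 against 1 h.

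Leaving out 1 library gave 8 to 8 for thapsigargin 8 h, 0 to 2 for IFN-gamma 1 h, 5 to 7 for 8 h, 2 to 4 for 24 h and 5 to 6 for 48 h. It gave 0 to 1 for untreated 8 against 1 h, 0 to 0 for 24 against 8 h and 5 to 7 for 48 against 24 h. For the IFN-gamma change it gave 4 to 5 from 1 to 8 h, 0 to 1 from 8 to 24 h and 0 to 3 from 24 to 48 h, and 7 to 8 for thapsigargin against IFN-gamma. For thapsigargin 1 h it gave 1 to 2; the counts of this comparison describe how the set was chosen and are no test.

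Over all genes the counts called and their range over 10 alternatives were 1331 (179 to 1918) for thapsigargin 1 h, 9174 (7418 to 9349) for 8 h, 195 (80 to 255), 3811 (2456 to 4299), 3493 (1526 to 3775) and 5570 (2041 to 5798) for IFN-gamma 1, 8, 24 and 48 h, and 9289 (7411 to 9650) for thapsigargin against IFN-gamma. They were 1049 (125 to 1913), 53 (0 to 271) and 6158 (610 to 6465) for the untreated steps, and 1874 (839 to 2717), 203 (13 to 346) and 255 (0 to 461) for the IFN-gamma changes between times. Leaving out 1 library gave 67 to 1876 for the change from 24 to 48 h (1876 without untreated 48 h replicate 2, 545 without untreated 24 h replicate 4), 125 to 277 for that from 8 to 24 h, 9 to 177 for untreated 24 against 8 h, 538 to 1108 for untreated 8 against 1 h and 808 to 1366 for thapsigargin 1 h. No fit with a replicate block was made, since the labels give no replicate number shared between groups. Y-linked levels recur over the times (IFN-gamma replicate 3 had 0.47, 0.50, 0.47 and 0.96 CPM), and whether libraries share a source is not given in the labels. Nr1d1, with 14 to 113 reads, is the gene most limited by depth.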
